A study of Mus musculus with 12 samples.

Results

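White adipose tissue of male mice lacking Ahnak was compared with that of wild-type mice after both had been fed a high fat diet (HFD). Every array whose title names the high fat diet was taken, which gave 6 of the 12 arrays of the study: 3 from Ahnak knockout mice (KO on HFD) and 3 from wild-type mice (WT on HFD). The diet held 60% fat, 20% carbohydrate and 20% protein by the labels and was given for 12 weeks, and the labels give an age of 18 weeks. The other 6 arrays, 3 of KO and 3 of WT mice on regular chow, entered the fit to estimate the spread and serve below as a baseline. Gene expression was read with 1-colour Affymetrix whole-transcript arrays, 1 per sample, and all values are log2 intensities, on which a difference of 1 is a 2-fold change. On each array 19937 genes were tested, each gene by its brightest row. The labels give neither the knockout allele, nor the depot the fat came from, nor an hour of collection. They number the replicates without stating that these are different mice. The p-values therefore cover the spread among these arrays, which may be technical.

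AHNAK is a giant scaffold protein that lies beneath the plasma membrane with annexin A2 and S100A10, and it is also known as a partner of calcium channels and of Smad proteins. White fat that expands on a high fat diet draws in macrophages, which gather around dying adipocytes, take up their lipid and enlarge their lysosomes. In the same setting fat cells are known to lower their mitochondrial and branched chain amino acid enzymes and their glucose transporter, while collagen accumulates around them.

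The array medians of the deposited values lay between 5.78 and 5.92. Across genes, KO arrays on HFD correlated with each other at r = 0.993 to 0.996, WT arrays on HFD at 0.985 to 0.994, and KO with WT arrays on HFD at 0.970 to 0.994. Genes are not independent replicates, so these are descriptions. Genes that define fat cells were bright on all 6 arrays: the 18 adipocyte identity genes averaged between 12.10 and 12.16 on KO arrays and between 11.49 and 12.01 on WT arrays. The 13 markers of epididymis and male tract, a neighbour of a common depot, averaged 3.98 to 4.01 on all 6.

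On HFD, 2691 genes (13.5% of all tested) passed at an adjusted p under 0.05, 1325 of them higher (6.65%) and 1366 lower (6.85%) in KO than in WT. The falls were larger than the rises. Among the genes that fell, 384 did so by over 2-fold, 64 by over 4-fold and 15 by over 8-fold, while among those that rose 79 passed 2-fold, 4 passed 4-fold and 0 passed 8-fold. The KO and WT arrays did not overlap for 1349 of the 1366 and 1315 of the 1325, set against 30.9% of all genes tested. The genes that passed were chosen by p on these same arrays, so little overlap follows from the choice and adds no support. On chow 0 genes passed in limma, with 1116 at an unadjusted p under 0.05 (5.6%) and 0 to 1 gene in the other settings run. The large count on HFD rests on 1 spread per gene, estimated from all 12 arrays. For genes that fell the median SD was 0.309 in WT on HFD and 0.103 to 0.119 in the other groups. For genes that rose it was 0.165 in WT on HFD and 0.0845 to 0.0953 in the others. The SE and p of the HFD comparison thus draw in part on chow arrays that spread less than the WT arrays on HFD. With only the 6 HFD arrays in the fit, which leaves 4 residual degrees of freedom in place of 8, 4 genes passed (0.0201%), 549 had an adjusted p under 0.06 and 2182 one under 0.10. The unadjusted p lay under 0.05 for 4844 genes (24.3%) in that fit and for 5351 (26.8%) in the fit of 12 arrays. Of the 2691 genes, 1955 were among the 2182. With 1 HFD array left out, the count of 2691 became 904 (KO replicate 1), 1261 (KO replicate 3), 1256 (WT replicate 2) or 956 (WT replicate 3), and every gene of the 2691 kept its direction in each of these. Where the arrays do not overlap, leaving 1 out cannot turn the direction.

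**Figure D1:**
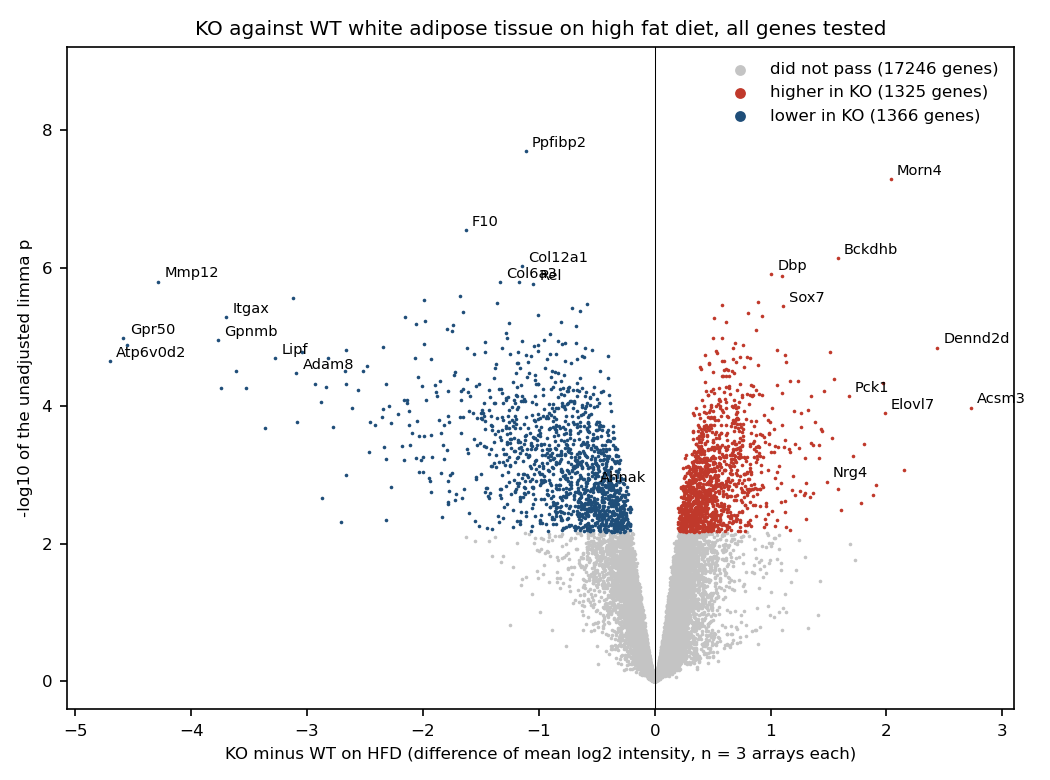
Difference of mean log2 intensity, KO minus WT on HFD (n = 3 arrays each, horizontal axis), against minus log10 of the unadjusted limma p (vertical axis) for all 19937 genes, with the 1325 that rose in KO in red, the 1366 that fell in blue and the others in grey. The falls reach -4.70 (Atp6v0d2) and the rises 2.73 (Acsm3), while Ppfibp2 has the smallest p.

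Ahnak was lower on the KO arrays, which bears on the labels. On replicates 1, 2 and 3 it had 9.58, 9.40 and 9.45 in KO, against 10.27, 9.68 and 10.04 in WT. The groups did not overlap, though WT replicate 2 lay close above KO replicate 1, and the difference was -0.52 ± 0.13 (SE, limma adjusted p = 0.021). It did not pass without KO replicate 2 (-0.48, adjusted p = 0.062), KO replicate 3 (adjusted p = 0.067) or WT replicate 3 (adjusted p = 0.074). The labels do not say which exons were targeted, so probes outside them could still read a signal.

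Among the 15 measured genes for AHNAK and its partners, 4 fell, 0 rose and 11 did not pass. The share that passed was 26.7%, against 13.5% of all genes, and it includes the knocked-out gene itself. Apart from Ahnak these were Myof, a membrane repair protein of the ferlin family (-1.37 ± 0.23, adjusted p = 0.0065), the paralog Ahnak2 (-1.12 ± 0.22, adjusted p = 0.0099) and the calcium channel subunit Cacna1d (-0.97 ± 0.28, adjusted p = 0.042). Ahnak2 had 7.40, 7.47 and 7.25 in KO, against 7.93, 9.03 and 8.53 in WT, without overlap. On chow its means were 7.04 in KO and 7.08 in WT. The annexin A2 complex that binds the scaffold did not pass: S100a10 lay at 12.52 to 12.54 in KO and at 12.52 to 12.75 in WT, and Anxa2 differed by -0.11 ± 0.09. The call of Cacna1d was lost without any 1 of the 12 arrays other than WT HFD replicate 1. The 4 calls of the list became 2 without KO replicate 2 or 3 or WT replicate 3.

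Macrophage genes were lower in KO. Of 19 pan-macrophage markers 18 fell, 0 rose and 1, the endotoxin co-receptor Cd14 (-0.55, adjusted p = 0.25), did not pass. Their median difference was -1.36, where that of all genes tested was 0.02. The list averaged 9.13, 9.11 and 9.25 on the KO arrays, against 9.85, 11.00 and 10.63 on the WT arrays. WT replicate 1 was the lowest of the WT arrays and still lay above every KO array, while the KO arrays lay in the range of the 6 chow arrays (8.80 to 9.37). Mpeg1, which encodes the pore protein perforin-2, had 8.62, 8.77 and 9.09 in KO, against 10.28, 11.99 and 11.76 in WT, a fall of 5.73-fold (-2.52 ± 0.38, adjusted p = 0.0051). The macrophage sialomucin Cd68 had 10.28, 10.20 and 10.33 in KO, against 11.26, 12.83 and 12.37 in WT (-1.89 ± 0.30, adjusted p = 0.006). Neither gene's groups overlapped, and in both WT replicate 1 stood closest to KO. In whole tissue, fewer macrophages and less of these RNAs per macrophage cannot be told apart. The list had 14 to 19 calls when any 1 HFD array was left out.

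Of 18 markers of resident, vessel-associated macrophages 1 fell and 17 did not pass, a share of 5.56% against 13.5% of all genes, with a median of 0.15. The difference from the other macrophage lists was not tested. The gene that fell was Mrc1, the mannose receptor, with 10.08, 10.13 and 10.04 in KO, against 10.62, 10.99 and 10.64 in WT (-0.67 ± 0.14, adjusted p = 0.012). Folr2, the folate receptor of resident macrophages, differed by -0.49 (adjusted p = 0.15), Lyve1 by 0.23 (0.76) and Timd4 by 0.53 (0.21). The list averaged 9.66, 9.53 and 9.44 in KO, against 9.80, 9.46 and 9.21 in WT, so the groups overlapped. The count of 1 became 7 without WT replicate 1 and 10 with array weights.

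Of 19 genes of lipid-laden macrophages 13 fell, 1 rose and 5 did not pass, with a median of -1.08. Atp6v0d2, which belongs to the proton pump of the vacuolar type, fell 26.0-fold, with 6.03, 5.87 and 6.61 in KO, against 9.14, 12.05 and 11.43 in WT. The lowest WT array, replicate 1, lay far above the highest KO array, and the difference was -4.70 ± 0.68 (adjusted p = 0.0045). The integrin chain Itgax (Cd11c) had 6.20, 6.60 and 6.99 in KO, against 8.96, 11.31 and 10.61 in WT. Its arrays did not overlap either, with WT replicate 1 again lowest in WT. The lipid receptor Trem2 did not pass (-0.99 ± 0.55, adjusted p = 0.29). WT replicate 1 (7.91) lay below all 3 KO arrays (8.505, 7.94 and 8.48) and WT replicates 2 and 3 above them (10.37 and 9.63). Apoe, the sterol-carrying apolipoprotein, rose by 0.32 ± 0.08 (adjusted p = 0.023), and Cd36 and Lpl, which fat cells also express, had -0.01 and 0.05. Calls in this list numbered 14 in all, 9 without KO replicate 1 and 8 without WT replicate 3.

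**Figure D2:**
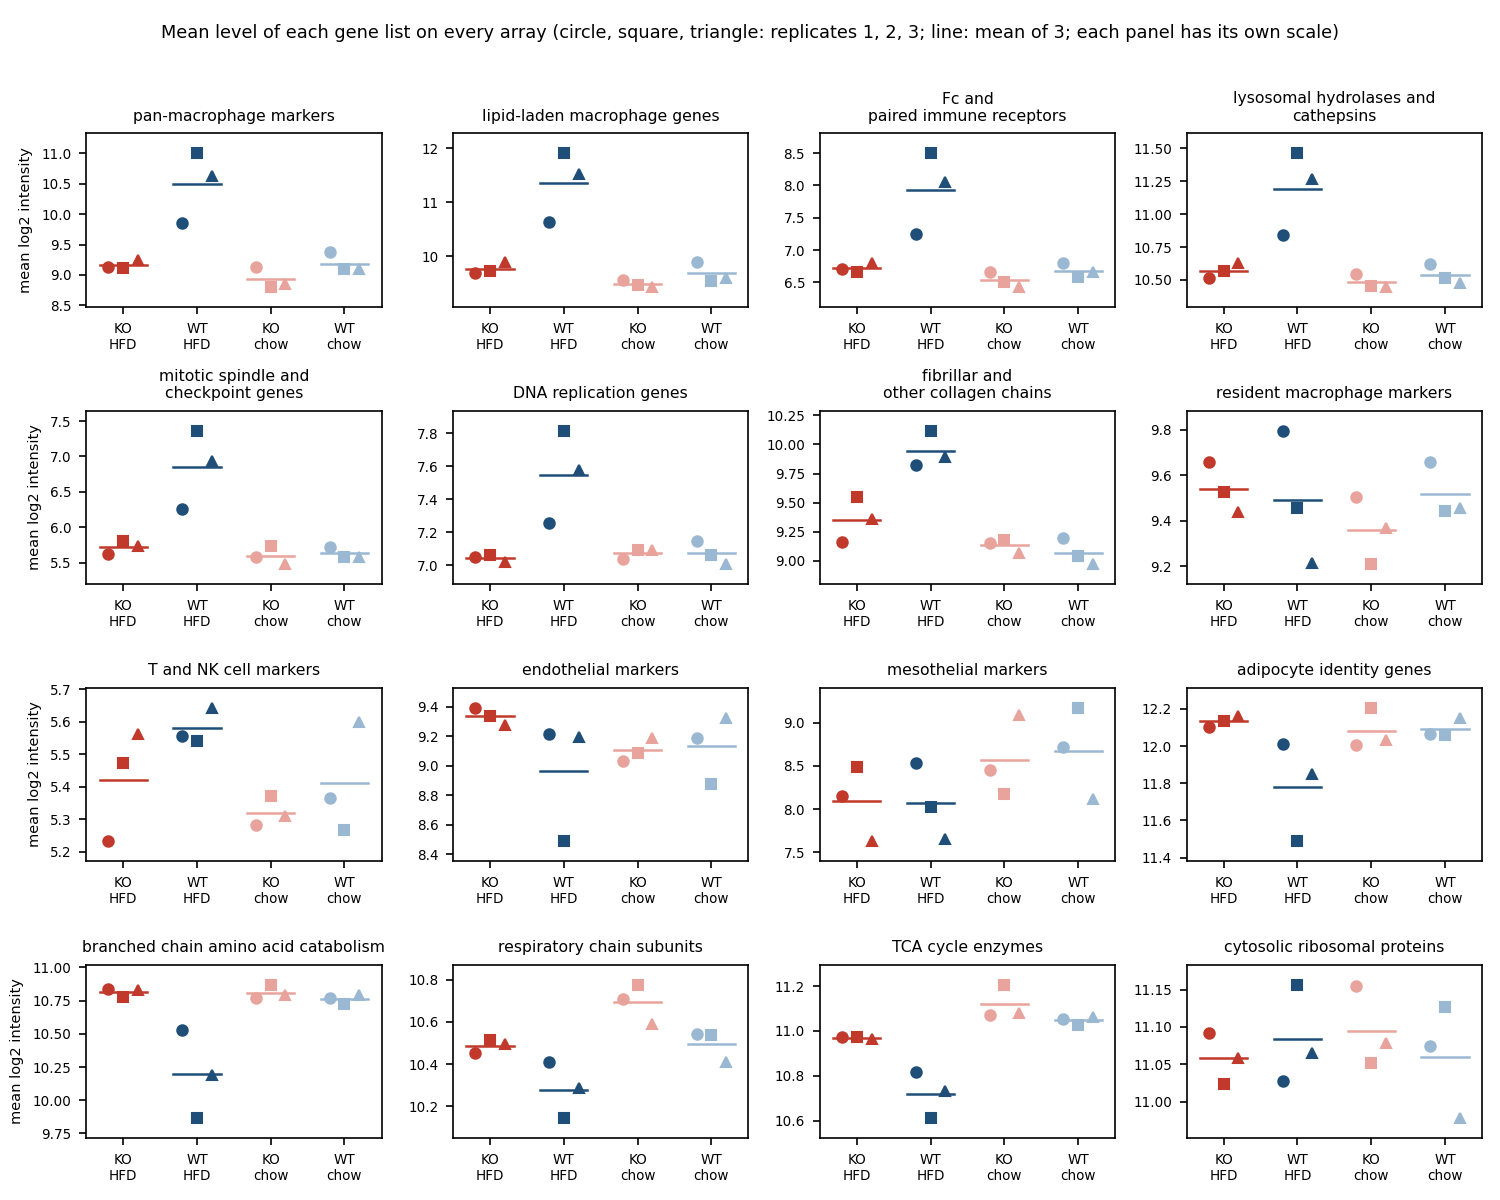
Mean log2 intensity of 16 gene lists on every array (circle, square and triangle are replicates 1, 2 and 3, lines the mean of 3, each panel with its own scale), with KO left of WT on each diet. In the pan-macrophage, lipid-laden macrophage, lysosomal, mitotic and collagen panels the WT arrays on HFD lie above the KO arrays on HFD, and in those of branched chain and TCA genes they lie lower. In the resident macrophage panel the KO and WT arrays on HFD overlap.

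Receptors by which myeloid cells read antibodies, glycans and microbes fell with the macrophage markers. Of 20 Fc and paired immune receptors 15 fell, 1 rose and 4 did not pass, with a median of -1.38. The C-type lectin Clec4d had 4.63, 4.46 and 5.09 in KO, against 6.20, 7.84 and 7.17 in WT (-2.34 ± 0.32, adjusted p = 0.0044). Clec12a fell by 2.33, and Fcgr4 (-2.27), Cd300a (-2.05) and the inhibitory Pirb (-1.53) fell too. Cd300lf rose by 0.34 (adjusted p = 0.048), and Fcgr2b (-0.21, adjusted p = 0.24), Trem1 (-0.01) and Clec4n (0.14) did not pass. Calls numbered 9 without KO replicate 1, 10 without KO replicate 3 and 10 without WT replicate 3.

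Among 18 Toll-like receptors and their adaptors 12 fell, 0 rose and 6 did not pass, with a median of -0.61. The endosomal sensor of bacterial RNA Tlr13 had 6.44, 7.22 and 6.15 in KO, against 8.02, 10.46 and 9.65 in WT, which is 6.84-fold lower (-2.77 ± 0.51, adjusted p = 0.0082). The receptor-like Cd180 fell by 2.48, and Tlr8 (-2.01), Tlr1 (-1.78), Tlr6 (-1.18) and Tlr7 (-1.11) fell too. Tlr4, the endotoxin receptor, differed by -0.25 (adjusted p = 0.25) and Tlr3, a sensor of viral RNA, by -0.15 (adjusted p = 0.22). The shared adaptor Myd88 fell by 0.28 (adjusted p = 0.033). Calls numbered 6 without KO replicate 1, 7 without KO replicate 3 and 6 without WT replicate 3, and 8 without WT replicate 2.

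Inflammasome and interleukin 1 genes had 9 of 14 members that fell and 5 that did not pass, with a median of -0.58. The receptor antagonist Il1rn, which blocks interleukin 1, fell most, with 5.99, 5.96 and 6.32 in KO, against 7.03, 9.74 and 8.47 in WT (-2.32 ± 0.49, adjusted p = 0.013). Its WT arrays lay far apart, and none reached down to the KO range. The DNA sensor Aim2 fell by 1.31, and the protease Casp1 (-1.13), Nlrc4 (-1.11) and the adaptor Pycard (-0.87) fell too. Il1b fell by 0.47 (adjusted p = 0.036), while the sensor Nlrp3 (-0.17, adjusted p = 0.48) and Il18 (-0.07, 0.83) did not pass. The 9 calls became 3 without KO replicate 1, 5 without KO replicate 2, 5 without WT replicate 2 and 4 without WT replicate 3.

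Of 23 chemokines 8 fell, 1 rose and 14 did not pass, with a median of -0.26. Those that fell were Ccl2, Ccl3, Ccl6, Ccl7, Ccl8, Ccl9, Ccl19 and Cxcl16, and their differences ran from -1.78 for Ccl3 to -0.64 for Ccl19. The interferon-induced T cell attractant Cxcl9 rose, with 8.48, 8.78 and 9.001 in KO, against 8.29, 7.75 and 8.18 in WT (0.68 ± 0.19, adjusted p = 0.035). Among 15 chemokine receptors 3 fell: Ccr2, the receptor for Ccl2 (-0.97, adjusted p = 0.014), Cxcr4 (-0.87, 0.0079) and Cx3cr1 (-0.57, 0.0087). Their share was 20%, against 13.5% of all genes. Ccr1 and Ccr7 did not pass (-0.44 and -0.19), nor did the other 10. The 9 chemokine calls became 5 without KO replicate 3 or WT replicate 3 and 6 without KO replicate 1 or WT replicate 2.

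Of 17 complement genes 9 fell, 1 rose and 7 did not pass, with a median of -0.43. The anaphylatoxin receptors C3ar1 (-1.82) and C5ar1 (-1.19), the integrin chains Itgb2 (-2.06) and Itgam (-1.46) and the recognition subunits C1qb (-0.97), C1qc (-0.67) and C1qa (-0.55) fell. The component C2 rose by 1.35 (adjusted p = 0.011), and the protease genes C1ra (0.29) and C1s1 (0.15) did not pass. Without KO replicate 1 the 10 calls became 5, without KO replicate 3 they became 6, and without WT replicate 3 they became 5.

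Many lysosomal genes were lower in KO. Of 26 lysosomal genes, mostly hydrolases and cathepsins, 16 fell, 0 rose and 10 did not pass, with a median of -0.50, and of 17 proton pump subunits 7 fell and 10 did not pass, with a median of -0.29. The list of hydrolases averaged 10.51, 10.57 and 10.63 in KO, against 10.84, 11.46 and 11.26 in WT, with no overlap. Ctss, the protease that trims the invariant chain of class II molecules, had 10.41, 10.58 and 10.61 in KO, against 11.69, 12.75 and 12.54 in WT (-1.80 ± 0.23, adjusted p = 0.0043). The collagen-degrading Ctsk fell by 2.00, and the acid lipase Lipa (-1.67), Gusb (-1.18), the asparaginyl protease Lgmn (-1.09) and Hexa (-0.93) fell too. Lamp1 and Lamp2, which line the lysosomal membrane, had -0.27 (adjusted p = 0.071) and -0.17 (0.19), and Gaa, Neu1 and Ctsc did not pass (0.05, -0.05 and -0.10).

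In the proton pump, which acidifies the lysosome, Tcirg1, the membrane subunit of osteoclasts and macrophages, fell by 1.33 (adjusted p = 0.022). In the cytosolic head the catalytic subunit Atp6v1a (-0.89) and its partner Atp6v1b2 (-1.01) fell, and in the membrane part Atp6v0a1 (-0.91) fell. The widely expressed Atp6v0d1 fell by 0.26 (adjusted p = 0.025), beside -4.70 for its counterpart Atp6v0d2, a member of both this list and that of lipid-laden macrophages. All 17 subunits had a negative difference, and the smallest were those of Atp6v1g1 and Atp6v1h, both -0.07. Hydrolase calls numbered 8 to 10 without KO replicate 1 or 3 or WT replicate 2 or 3, and 22 without WT replicate 1. Pump calls numbered 3 to 4 without KO replicate 1 or 3 or WT replicate 2 or 3, and 13 without WT replicate 1.

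Many lysosomal genes carry an element read by TFEB and related factors, whose core is the hexamer CACGTG, and clock factors read the same core. The hexamer was therefore looked for in the 250 bases before each gene's start in RefSeq's promoters of GRCm38.p6. It is its own reverse complement, so a match counts on both strands. At least 1 promoter of 8.11% of the genes tested held it (1266 of 15613 with a promoter in the table), 9.78% of those that fell and 8.97% of those that rose. In the lysosomal list 7 of 22 genes held it (31.8%), among them 5 of the 13 that fell and had a promoter. These were Ctsd, Glb1, Ctsa, Lgmn and Ctsl. Ctsa and Lgmn each have a further promoter in the same source that does not hold it, and only the promoter that holds it is printed below. In the proton pump list 2 of 11 held it (18.2%), with Atp6v1a the only member of the 5 that fell. Base composition was not matched between these sets, and a match in the letters is no evidence of binding. Promoters of 5 genes that fell and hold the hexamer are printed with the hexamer in capitals, as examples of where it lies, beside that of Ctss, which fell more than any of them and does not hold it in this window. Each is given 5′ to 3′ on the gene's strand. They lie at chr7:142387828-142388077 (Ctsd, minus), chr9:114400828-114401077 (Glb1, plus), chr16:44139260-44139509 (Atp6v1a, minus), chr12:102439093-102439342 (Lgmn, minus), chr2:164833523-164833772 (Ctsa, plus) and chr3:95526536-95526785 (Ctss, plus).
Ctsd: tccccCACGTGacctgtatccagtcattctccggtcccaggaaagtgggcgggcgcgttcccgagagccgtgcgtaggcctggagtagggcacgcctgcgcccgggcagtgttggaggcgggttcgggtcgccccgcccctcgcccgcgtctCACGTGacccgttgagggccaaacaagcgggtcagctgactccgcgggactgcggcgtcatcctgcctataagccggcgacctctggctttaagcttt
Glb1: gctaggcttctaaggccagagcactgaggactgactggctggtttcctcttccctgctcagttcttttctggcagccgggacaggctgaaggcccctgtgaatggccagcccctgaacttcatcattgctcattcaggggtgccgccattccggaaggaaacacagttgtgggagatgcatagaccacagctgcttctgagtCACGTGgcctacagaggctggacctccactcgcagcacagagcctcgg
Atp6v1a: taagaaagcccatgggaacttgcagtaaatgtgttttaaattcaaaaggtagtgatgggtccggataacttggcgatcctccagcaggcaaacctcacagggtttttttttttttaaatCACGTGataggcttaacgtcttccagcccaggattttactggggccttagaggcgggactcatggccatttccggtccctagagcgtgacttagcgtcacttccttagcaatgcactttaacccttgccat
Lgmn: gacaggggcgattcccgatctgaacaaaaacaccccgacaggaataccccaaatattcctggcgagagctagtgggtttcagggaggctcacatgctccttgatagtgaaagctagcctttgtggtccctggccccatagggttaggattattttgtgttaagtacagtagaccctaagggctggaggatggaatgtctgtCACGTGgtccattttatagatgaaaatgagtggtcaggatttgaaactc
Ctsa: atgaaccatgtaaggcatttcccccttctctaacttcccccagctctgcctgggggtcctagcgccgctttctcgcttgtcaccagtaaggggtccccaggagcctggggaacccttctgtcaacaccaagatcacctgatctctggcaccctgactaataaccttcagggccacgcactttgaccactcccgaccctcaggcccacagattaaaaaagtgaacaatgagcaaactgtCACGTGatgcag
Ctss: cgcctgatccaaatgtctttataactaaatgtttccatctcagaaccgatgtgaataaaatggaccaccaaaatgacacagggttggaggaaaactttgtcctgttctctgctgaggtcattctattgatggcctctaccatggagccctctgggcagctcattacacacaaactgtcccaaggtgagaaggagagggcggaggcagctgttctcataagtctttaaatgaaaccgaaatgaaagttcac

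The 5 genes with the hexamer differed as follows. The aspartyl protease Ctsd, with 2 copies, had 12.59, 12.92 and 12.96 in KO, against 13.14, 13.57 and 13.46 in WT (-0.56 ± 0.13, adjusted p = 0.018). Glb1, the lysosomal beta-galactosidase, had 8.84, 8.93 and 8.99 in KO, against 9.12, 9.68 and 9.43 in WT (-0.49 ± 0.12, adjusted p = 0.022). Atp6v1a had 10.38, 10.56 and 10.45 in KO, against 10.79, 11.85 and 11.42 in WT (-0.89 ± 0.19, adjusted p = 0.015). In each of the 3 the KO arrays lay below every WT array, and WT replicate 1 was the lowest in WT. Lgmn fell by 1.09 ± 0.20 (adjusted p = 0.0083) and the protective protein Ctsa by 0.57 ± 0.16 (adjusted p = 0.041).

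Class II antigen presentation was lower in KO, where 8 of 13 genes fell, 0 rose and 5 did not pass (median -0.58). Cd74, the invariant chain, fell by 0.67, the class II chains H2-Ab1, H2-Eb1 and H2-Aa by 0.58, 0.56 and 0.54, and the peptide loader H2-DMa (-0.63). Their master regulator Ciita had 6.24, 6.51 and 6.71 in KO, against 6.98, 7.23 and 7.68 in WT (-0.81 ± 0.17, adjusted p = 0.013). The costimulatory gene Cd80 fell by 0.83, while Cd86 (0.03) and Cd40 (-0.08) did not pass. Class I presentation gave 1 of 13 genes that fell, the chaperone Calr (-0.33, adjusted p = 0.011), and B2m, the light chain of class I, differed by -0.03. The class I share of 7.69% lay below the 13.5% of all genes.

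Lists of other leukocytes had 2 to 4 markers each that fell. Of 24 T and NK cell markers 2 fell: Il7r, which cells other than T cells also carry (-3.52, adjusted p = 0.0059), and Klrk1 (-0.38, adjusted p = 0.028). Their share was 8.33%, below the 13.5% of all genes. That count of 2 became 1 without KO replicate 1 or 2 or WT replicate 3. The defining T cell genes Cd3e, Cd3d and Cd8a had 0.04, 0.04 and -0.06, and the list averaged 5.23, 5.47 and 5.56 in KO, against 5.56, 5.54 and 5.64 in WT. In the B and plasma cell list 4 of 17 fell and Ebf1, a factor that fat progenitors also use, rose by 0.77, while Ms4a1, which encodes CD20, had -0.24 (adjusted p = 0.67). The 5 calls, a share of 29.4% against 13.5% of all genes, became 1 without KO replicate 1 and 2 without WT replicate 3. Of 21 neutrophil, eosinophil and mast cell genes S100a8 (-1.18, adjusted p = 0.0044) and Csf3r (-0.40) fell and the mast cell chymase Cma1 rose by 0.48 (adjusted p = 0.047), a share of 14.3% against 13.5% of all genes, and these 3 calls became 1 without KO replicate 1 or WT replicate 3. Among 14 dendritic cell genes Itgax, Irf8 (-1.20) and Flt3 (-0.83) fell and Itgae rose by 0.69 (adjusted p = 0.0078). The dendritic share that passed was 28.6%, against 13.5% of all genes. Of 20 interferon response genes Irf9 fell by 0.29 and Isg20 rose by 0.65, a share of 10% against the background of 13.5%. Those 2 calls became 0 without KO replicate 1 or 3 or WT replicate 2, 1 without KO replicate 2 or WT replicate 3 and 4 without WT replicate 1.

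Genes of cell division were lower in KO. Of 27 mitotic spindle and checkpoint genes 25 fell and 2, Ndc80 (-0.45, adjusted p = 0.051) and Anln (-0.40, 0.059), did not pass, with a median of -1.12. The list averaged 5.62, 5.81 and 5.73 in KO, against 6.26, 7.37 and 6.94 in WT, and 5.48 to 5.73 on the 6 chow arrays. The kinesin Kif11, which separates the spindle poles, had 5.29, 5.49 and 5.43 in KO, against 6.41, 7.61 and 7.04 in WT (-1.62 ± 0.22, adjusted p = 0.0044). Bub1, a checkpoint kinase, had 4.55, 4.95 and 4.80 in KO, against 5.62, 7.44 and 6.64 in WT (-1.80 ± 0.36, adjusted p = 0.011). In both, WT replicate 2 was highest and the groups did not overlap. Of 24 DNA replication genes 11 fell and 13 did not pass, with a median of -0.47: the licensing factor Cdt1 fell by 0.99, Rrm2, a subunit of ribonucleotide reductase, by 0.93, and the helicase subunits Mcm5 (-0.90), Mcm3 (-0.83) and Mcm2 (-0.67) also fell, while Mcm4 (-0.28) and Mcm7 (0.00) did not pass. The 25 mitotic calls became 13 without KO replicate 1 and 12 without WT replicate 3, and the 11 replication calls 5 to 6 without KO replicate 1 or 3 or WT replicate 2 or 3 and 17 without WT replicate 1.

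Matrix genes fell in part. Of 15 collagen chains 8 fell, 0 rose and 7 did not pass, with a median of -0.54. Col12a1, a fibril-associated collagen, had 6.61, 6.85 and 6.79 in KO, against 7.64, 7.92 and 8.13 in WT (-1.15 ± 0.12, adjusted p = 0.0032), and both groups lay above the chow means of 5.93 in KO and 5.91 in WT. Col8a1 fell by 1.34, and so did other chains: Col6a3 (-1.34), the fibrillar chain Col1a1 (-0.86), Col6a2 (-0.72), Col16a1 (-0.57), Col1a2 (-0.57) and Col5a1 (-0.39). Col3a1 (-0.46, adjusted p = 0.079) and Col5a2 (-0.54, 0.071) did not pass. In basement membranes the chains Col4a1 and Col4a2 (-0.62 and -0.61) and the perlecan gene Hspg2 (-0.44) fell, Lamb2 rose by 0.49 (adjusted p = 0.049), and 12 of 16 did not pass. The 4 basement membrane calls, a share of 25% against 13.5% of all genes, became 2 without WT replicate 3 and 6 without WT replicate 1. Collagen calls numbered 4 without KO replicate 1 and 5 without KO replicate 3 or WT replicate 2 or 3.

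Among 18 metalloproteinases and inhibitors 7 fell: Mmp12, Adam8, Timp1, Mmp3, Adam12, Mmp19 and Adamts4, with a median of -0.59 over the list. Adam8, a membrane protease of myeloid cells, had 7.15, 7.23 and 7.42 in KO, against 9.01, 11.47 and 10.59 in WT, an 8.52-fold fall (adjusted p = 0.0051). The inhibitor Timp1 had 6.49, 6.98 and 6.85 in KO, against 8.19, 10.50 and 8.99 in WT (-2.45 ± 0.45, adjusted p = 0.0079). Neither overlapped. Mmp3 passed although its arrays overlapped, with 4.71, 5.61 and 5.35 in KO, against 5.51, 8.11 and 7.57 in WT. The gelatinase Mmp2 (-0.62, adjusted p = 0.25), Mmp14 (-0.60) and Timp4 (1.42, adjusted p = 0.15) did not pass. Of 20 matricellular and cross-linking genes 6 fell, among them tenascin C (Tnc, -1.23), fibronectin (Fn1, -0.76), the crosslinker Lox (-0.56) and the hydroxylases Plod2 (-0.53) and Plod1 (-0.42). Without KO replicate 1 or WT replicate 3 that count became 2, and 3 without KO replicate 3 or WT replicate 2. The 7 metalloproteinase calls became 14 without WT replicate 1.

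The 10 largest falls, predicted genes passed over, were those of Atp6v0d2 (-4.70), Gpr50 (-4.58), Tm4sf19 (-4.55), Mmp12 (-4.28), Gpnmb (-3.77), Ubd (-3.74), Itgax (-3.70), Rgs1 (-3.62), Il7r (-3.52) and Stap1 (-3.36). The genes ranked 11 to 20 were Lipf, Tnip3, Adam8, Dhrs9, Arhgap25, Slc37a2, Cd300c2, Htr2b, Atf3 and Slc15a3, with differences of -3.27 to -2.82. Lipf, a lipase best known from the stomach, had 4.39, 5.94 and 5.60 in KO, against 7.87, 8.54 and 9.33 in WT (-3.27 ± 0.47, adjusted p = 0.0044), and here WT replicate 3 was highest. Tnip3, an inhibitor of NF-kappaB signalling, had 5.77, 5.96 and 6.35 in KO, against 8.10, 9.86 and 9.47 in WT (-3.12 ± 0.36). Arhgap25, a GTPase-activating protein of leukocytes, fell by 3.04, and Slc15a3 (-2.82) encodes a lysosomal peptide transporter. The serotonin receptor Htr2b had 4.50, 4.54 and 4.55 in KO, against 5.18, 9.32 and 7.70 in WT. WT replicate 1 was close to the KO arrays, and the call (-2.87 ± 0.73, adjusted p = 0.025) was lost without any 1 of the other 5 HFD arrays, with adjusted p-values from 0.056 (without WT replicate 2) to 0.0865 (without WT replicate 3).

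Ranked by p, the first 10 falls included Mmp12 and Tnip3, which are also among the 20 largest, and 8 genes with differences between -1.99 and -1.05. Ppfibp2, which encodes liprin beta 2, had 6.87, 6.94 and 7.12 in KO, against 7.99, 8.11 and 8.16 in WT, a 2.16-fold fall (-1.11 ± 0.08, adjusted p = 0.00041). Coagulation factor F10 had 6.54, 6.92 and 6.80 in KO, against 8.02, 8.60 and 8.52 in WT (-1.63 ± 0.15, adjusted p = 0.0019). Rel, a subunit of NF-kappaB, had 7.13, 7.16 and 7.30 in KO, against 8.06, 8.44 and 8.24 in WT (-1.05 ± 0.12, adjusted p = 0.0032). On the KO arrays Ppfibp2 and F10 were near their chow levels, while Rel lay above its own. The chow means in KO and WT were 6.87 and 6.86 for Ppfibp2, 6.69 and 6.87 for F10, and 6.81 and 7.04 for Rel. The death receptor Tnfrsf21 (-1.17), the collagen Col6a3 (-1.34), the metalloproteinase Adam12 (-1.68) and the copper oxidase-like Hephl1 (-1.99) also stood among the first 10, and none of these calls was lost when any 1 HFD array was left out.

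**Figure D3:**
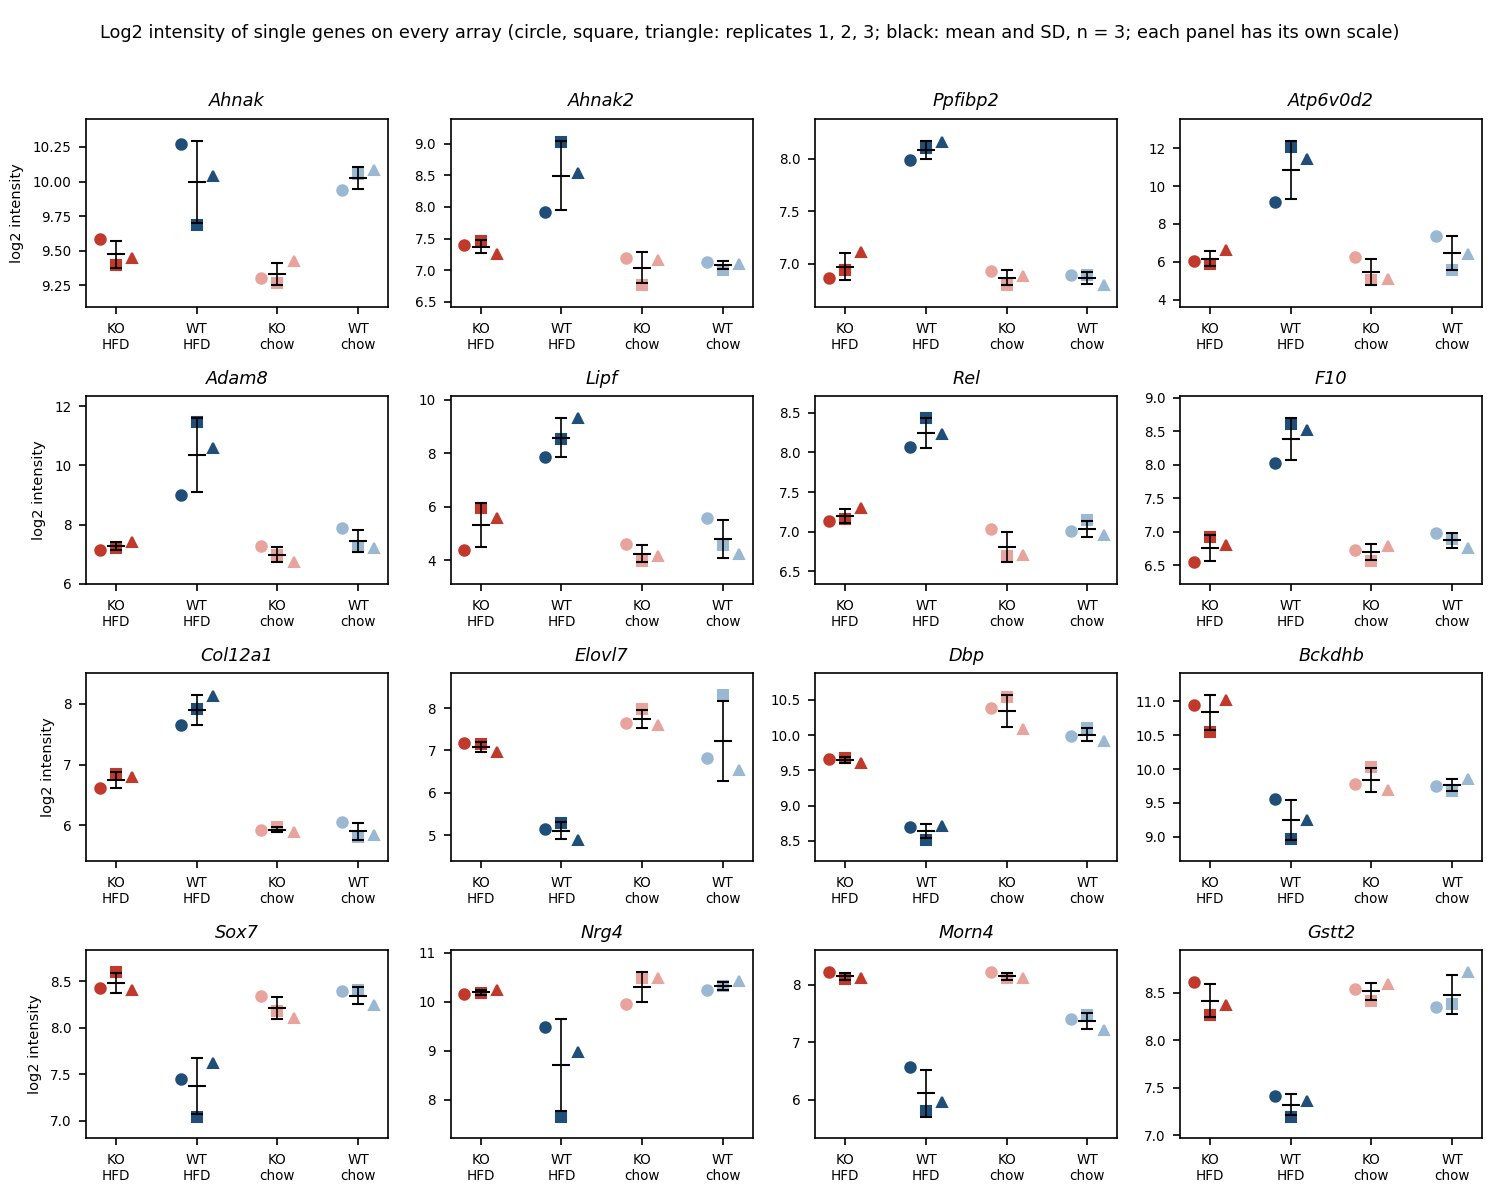
Log2 intensity of 16 named genes on every array (coloured points are replicates 1, 2 and 3, black marks the mean and SD, n = 3, each panel with its own scale), with KO left of WT on each diet. The KO and WT arrays of Ppfibp2, F10 and Rel on HFD lie apart, and the WT arrays of Atp6v0d2, Adam8 and Nrg4 are spread widely with replicate 1 closest to KO.

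Many metabolic genes of fat cells were higher in KO, with branched chain amino acid catabolism first. Of 23 genes 20 rose, 0 fell and 3 did not pass, with a median of 0.56. The list averaged 10.84, 10.78 and 10.83 in KO, against 10.53, 9.86 and 10.19 in WT, so that the WT arrays lay below and were more scattered. Bckdhb, a subunit of the ketoacid dehydrogenase that commits these amino acids to breakdown, had 10.94, 10.54 and 11.02 in KO, against 9.55, 8.96 and 9.25 in WT, a 2.99-fold rise (adjusted p = 0.0032). Ivd, which handles the leucine branch, had 11.56, 11.46 and 11.52 in KO, against 11.14, 9.86 and 10.38 in WT (1.05 ± 0.24, adjusted p = 0.016). Bcat2, the transaminase of the opening step, rose by 0.74, the phosphatase Ppm1k by 0.66 and the kinase Bckdk, which restrains the dehydrogenase, by 0.38. Dld, a subunit shared with other dehydrogenases, differed by 0.18 (adjusted p = 0.19). The 20 calls became 4 without KO replicate 1, 9 without KO replicate 3, 12 without WT replicate 2 and 5 without WT replicate 3.

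Of 26 genes of the TCA cycle and its entry 12 rose, 0 fell and 14 did not pass, with a median of 0.26. The list averaged 10.97, 10.97 and 10.96 in KO, against 10.82, 10.61 and 10.73 in WT, without overlap. Pdk2, a kinase that inhibits pyruvate dehydrogenase, rose by 0.85, Suclg2 by 0.70, Idh2 by 0.62 and the dehydrogenase subunits Pdhb and Pdha1 by 0.41 and 0.39. Citrate synthase (Cs, 0.13) and Mdh2 (0.09) did not pass. In the respiratory chain 14 of 33 subunits rose and 19 did not pass (median 0.24), 9 of the 14 in complex I. Ndufa5 had 8.67, 8.83 and 8.75 in KO, against 8.36, 8.12 and 8.26 in WT (0.50 ± 0.09, adjusted p = 0.007). Of 26 mitochondrial ribosomal proteins 6 rose (median 0.12), such as Mrps35 (0.44) and Mrpl9 (0.40). The share that passed was 23.1%, against 13.5% of all genes. Of 22 cytosolic ribosomal proteins 0 passed (median -0.03). TCA calls numbered 4 to 5 without any 1 of KO replicates 1 to 3 or WT replicates 2 and 3, respiratory calls 1 to 5, and calls of mitochondrial ribosomal proteins 2 to 4, which became 11 without WT replicate 1.

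Fatty acid oxidation was mixed. Of 28 genes of mitochondrial and peroxisomal oxidation 4 rose, 1 fell and 23 did not pass, a share of 17.9% against 13.5% of all genes, with a median of 0.12. Acadvl (0.44), Hadh (0.36), Etfa (0.32) and the peroxisomal transporter Abcd2 (0.47) rose, and Cpt1a, which admits fatty acids to mitochondria in many tissues, fell by 0.53 (adjusted p = 0.0097). Among uptake and activation genes Acsm3 and Acsm5 rose by 2.73 and 1.42, Acsl4 and Acss1 fell by 0.40 and 0.45, and 14 of 18 did not pass. The share that passed was 22.2%, against 13.5% of all genes. The 5 oxidation calls became 2 without KO replicate 1 or 3 or WT replicate 2 or 3 and 10 without WT replicate 1, and the 4 uptake calls 2 and 8 in the same settings.

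Of 22 genes of fatty acid synthesis, elongation and desaturation 6 rose, 1 fell and 15 did not pass, with a median of 0.15. The elongase Elovl7 had 7.17, 7.14 and 6.96 in KO, against 5.14, 5.28 and 4.90 in WT, a 3.95-fold rise (1.98 ± 0.35, adjusted p = 0.0072). Acaca, the cytosolic acetyl-CoA carboxylase, rose by 0.93, while Fasn (0.13), Acly (0.22), Scd1 (0.18) and Elovl6 (-0.08) did not pass. The elongase Elovl1 fell by 0.34. Of 22 triglyceride and droplet genes 8 rose, 1 fell and 13 did not pass (median 0.21): Mogat1 rose by 1.88, the acyltransferase Gpat3 by 0.74 and the droplet budding factor Fitm2 by 0.50, while perilipin 2 (Plin2), which coats droplets in macrophages as well, fell by 0.87. The synthesis count of 7 became 4 without KO replicate 1 or 3 and 3 without WT replicate 3. The triglyceride count of 9 became 2 without KO replicate 1, 4 without KO replicate 3 or WT replicate 3 and 5 without WT replicate 2.

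Adipocyte identity genes included 7 risers and 1 faller among 18, with 10 not passing and a median of 0.39. Slc2a4, the insulin-responsive glucose transporter GLUT4, had 10.51, 10.38 and 10.48 in KO, against 10.23, 8.37 and 9.36 in WT (1.14 ± 0.33, adjusted p = 0.045). The KO arrays agreed closely, and WT replicate 1 lay just below them. In the insulin list 6 of 20 rose and 3 fell: the adaptor Cbl (-0.65), the phosphatase Ptpn1, which dephosphorylates the insulin receptor (-0.53), and the GTPase-activating protein Tbc1d1 (-0.70). The 8 identity calls became 2 without KO replicate 1 or 3 or WT replicate 3 and 4 without KO replicate 2 or WT replicate 2. The 9 insulin calls became 3 without KO replicate 1 or 3 or WT replicate 2 or 3 and 5 without KO replicate 2. In the lipolysis list the lipases Pnpla2 (0.44) and Lipe (0.49), the droplet coat Plin1 (0.52) and the phosphodiesterase Pde3b (0.84), through which insulin restrains lipolysis, rose, and 9 of 13 did not pass. Of 15 thermogenic genes Ebf2 (0.62) rose and Dio2 (-0.72) and Otop1 (-1.47) fell, while the uncoupling protein Ucp1 did not pass (-0.44). The thermogenic share that passed was 20%, against 13.5% of all genes. The 4 lipolysis calls became 2 without any 1 of KO replicate 1 or 3 or WT replicate 2 or 3, and the 3 thermogenic calls 6 without WT replicate 1.

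**Figure D4:**
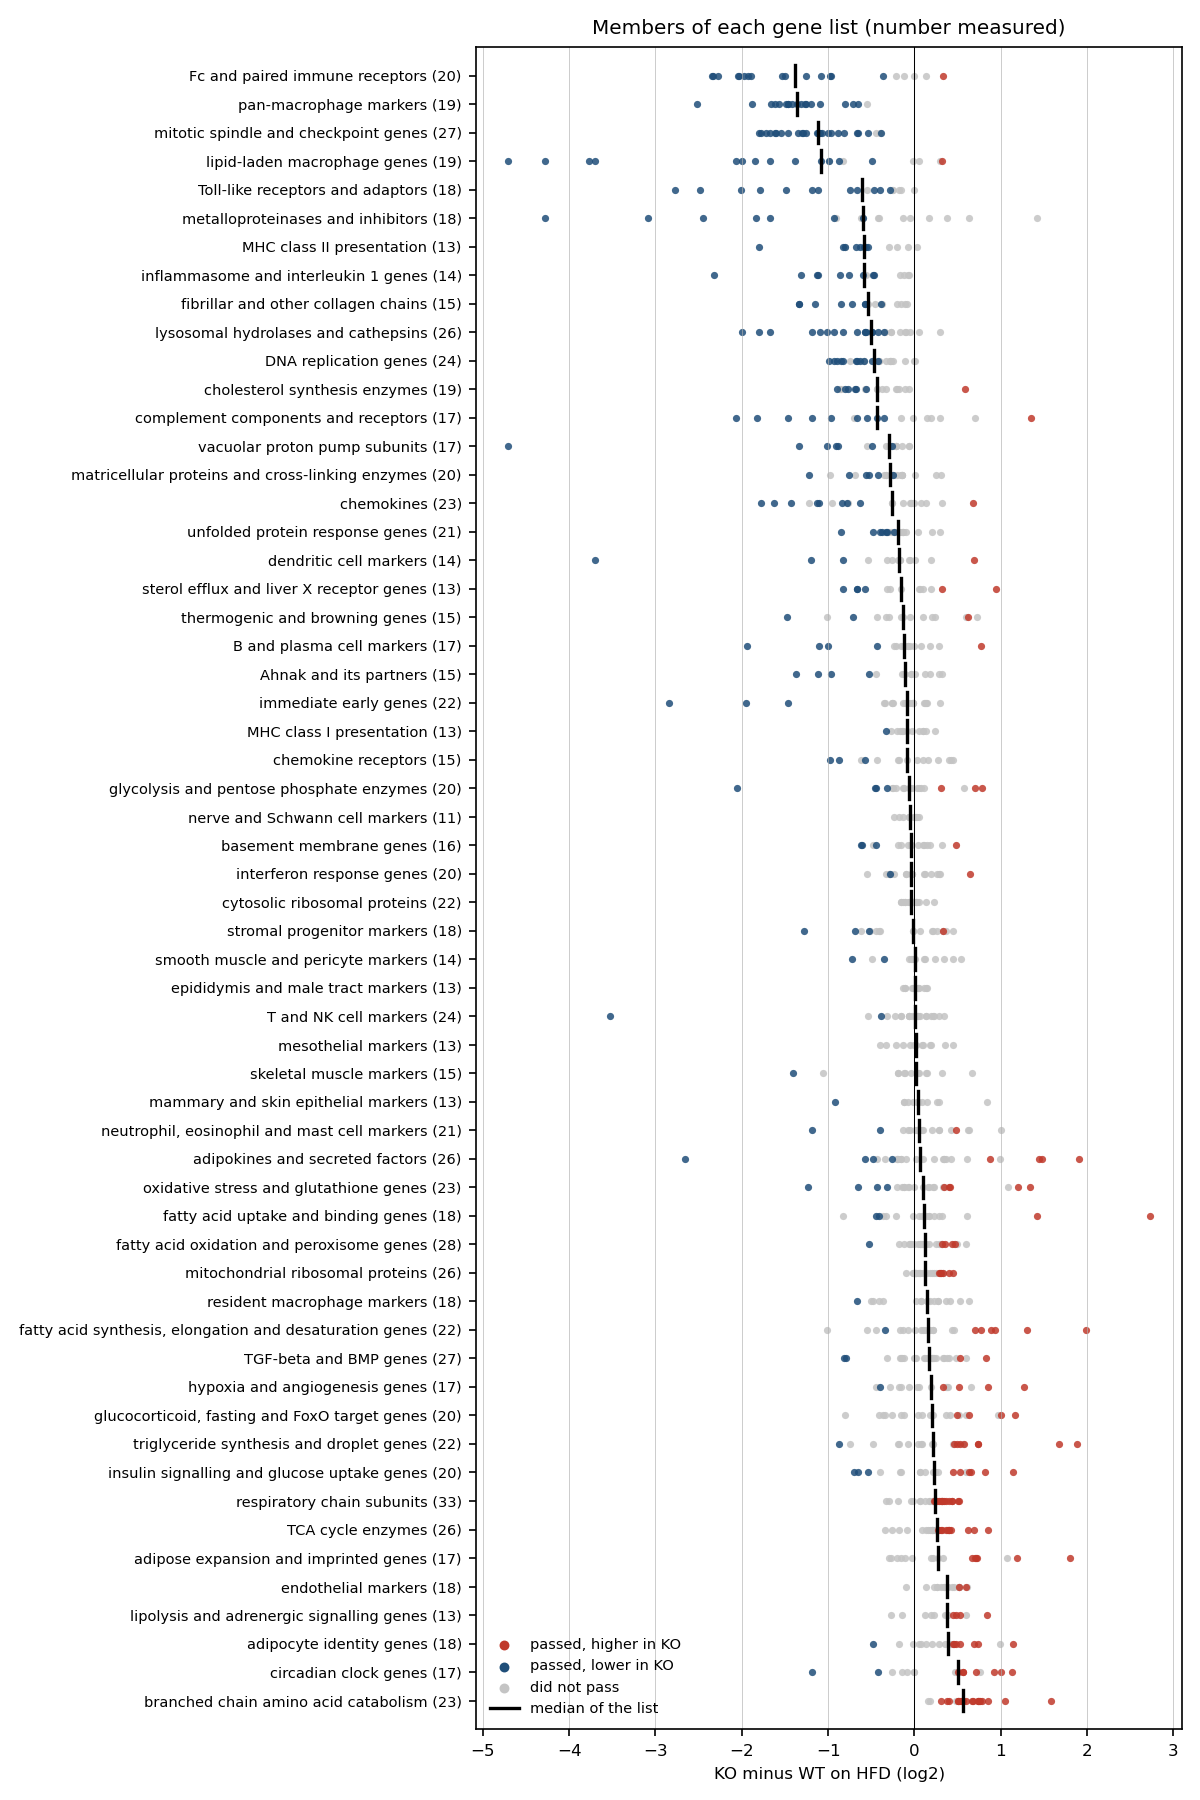
Difference KO minus WT on HFD (log2, horizontal axis) of every measured member of each gene list, with members that rose in red, fell in blue and did not pass in grey, black bars marking list medians and the number measured in brackets. The medians run from -1.38 in Fc and paired immune receptors to 0.56 in branched chain amino acid catabolism.

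The 10 largest rises were those of Acsm3 (2.73), Dennd2d (2.44), Fam13a (2.15), Morn4 (2.04), Elovl7 (1.98), Agt (1.91), Mogat1 (1.88), Nnat (1.81), Adgrg2 (1.78) and Inmt (1.71). Below them came Pck1, Eci3, Nt5e, Bckdhb, Slc43a1, St6galnac5, Gstt1, Nrg4, Chst1 and Chrdl1, with rises of 1.44 to 1.68. Nrg4, a neuregulin secreted by fat cells, had 10.15, 10.18 and 10.24 in KO, against 9.48, 7.66 and 8.98 in WT (1.48 ± 0.35, adjusted p = 0.019). Pck1, which fat cells use to make glycerol for triglycerides, had 12.997, 12.93 and 13.08 in KO, against 12.12, 10.79 and 11.07 in WT. In both the KO arrays agreed closely and the WT arrays did not. Slc43a1, an amino acid transporter, had 9.71, 9.52 and 9.37 in KO, against 8.56, 7.56 and 7.84 in WT (1.55 ± 0.24, adjusted p = 0.0056), and on chow its means were 9.71 in KO and 8.75 in WT, a difference of 0.97 that did not pass (adjusted p = 0.58). Gstt1 and Gstt2, glutathione transferases, rose by 1.51 and 1.10. Calls of Eci3, Nt5e and Nrg4 were lost without KO replicate 1 or 3 (adjusted p = 0.060 to 0.098), and those of Eci3 and Nt5e also without WT replicate 2 or 3, and Eci3 without KO replicate 2.

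Among rises with the smallest p, Morn4 had 8.22, 8.11 and 8.11 in KO, against 6.57, 5.80 and 5.96 in WT, a 4.1-fold rise (2.04 ± 0.16, adjusted p = 0.00052). Its chow means were 8.15 in KO and 7.37 in WT. The endothelial transcription factor Sox7 had 8.43, 8.60 and 8.40 in KO, against 7.45, 7.04 and 7.62 in WT (1.10 ± 0.13, adjusted p = 0.0038). Both were without overlap. The remaining genes of this group included Zbtb11os1 (0.81), Zbtb5 (0.58), the nuclear protein Anp32a (0.51) and Pyroxd2 (0.61), the last of which had means of 7.35 in KO and 6.77 in WT on chow as well. None of the calls named in this paragraph was lost when any 1 HFD array was left out.

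The clock list had 17 measured genes, of which 7 rose and 2 fell, and its median was 0.50. The core activator Arntl (Bmal1) had 6.37, 6.56 and 6.35 in KO, against 7.61, 7.83 and 7.41 in WT (-1.19 ± 0.19, adjusted p = 0.0059), and the repressor Nfil3 fell by 0.42. Dbp, an output factor of the clock, had 9.66, 9.67 and 9.60 in KO, against 8.69, 8.52 and 8.71 in WT (1.01 ± 0.11, adjusted p = 0.0032). Per3, which opposes the activator, rose by 1.13, Per2 by 0.72, Cry2 by 0.50 and Hlf by 0.56. Per1 (0.51, adjusted p = 0.065), Nr1d1 (0.76, 0.080) and Clock (-0.14, 0.41) did not pass. The hour at which each sample was collected is not given, so its part in these differences was not tested. In the clock list 5 of 15 genes with a promoter held CACGTG (33.3%), 1 of the 6 that rose (Tef) and 0 of the 2 that fell. Clock calls numbered 6 to 8 without any 1 of KO replicates 1 to 3 or WT replicates 2 and 3, and 11 without WT replicate 1.

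Secreted factors split. Of 26 adipokines and secreted factors 4 rose (Agt, Nrg4, the BMP antagonist Chrdl1 at 1.44 and the growth factor Fgf10 at 0.87) and 4 fell (Saa3, progranulin Grn at -0.57, leptin Lep at -0.48 and Igf1 at -0.26). Adiponectin (Adipoq, 0.43, adjusted p = 0.065), resistin (Retn, 0.99, 0.063), Rbp4 (0.61, 0.16) and Il6 (0.02) did not pass. In the fat expansion and imprinted list 6 of 17 rose, 0 fell and 11 did not pass: Nnat (1.81), Zim1 (1.19), Igf2 (0.72), Sgce (0.71), Ndn (0.70) and Cdkn1c (0.66), whereas Mest (-0.29) and Peg3 (0.34) did not. Of 27 TGF-beta and BMP genes the ligand Tgfb1 (-0.81) and its receptor Tgfbr1 (-0.79) fell, Bmp4 (0.83) and the BMP target Id1 (0.52) rose, and 23 did not pass, a share of 14.8% against 13.5% of all genes. Those 4 calls became 0 without WT replicate 3, 1 without KO replicate 1 or WT replicate 2 and 2 without KO replicate 2 or 3. The 8 calls of secreted factors became 3 without KO replicate 1 or 3, 4 to 5 without WT replicate 2 or 3 and 13 without WT replicate 1, and the 6 imprinted calls 3 without WT replicate 3.

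Angiogenic factors were higher in KO where they passed. Angpt1, the ligand that stabilises vessels, had 7.74, 6.82 and 7.90 in KO, against 6.12, 6.36 and 6.19 in WT (1.26 ± 0.22, adjusted p = 0.0072), and its receptor Tek rose by 0.51. Vegfa, the endothelial growth factor, had 10.44, 10.09 and 10.54 in KO, against 9.90, 9.01 and 9.61 in WT (0.85 ± 0.21, adjusted p = 0.025). The hypoxia factor Hif1a fell by 0.40, and its hydroxylase Egln1 rose by 0.33. In this list 12 of 17 genes did not pass, and the 5 calls became 1 to 3 without any 1 HFD array other than WT replicate 1, and 8 without that one. Of 23 oxidative stress and glutathione genes 5 rose, with Gsta4 (1.34) and the plasma peroxidase Gpx3 (1.21) first, and 4 fell, with the haem oxygenase Hmox1 (-1.23) and Srxn1 (-0.65) first. Glycolysis gave 3 rises and 4 falls in 20 genes: Pfkm (0.70) and Ldhb (0.78) rose, and the myeloid hexokinase Hk3 (-2.06) and Pkm (-0.45) fell. Among 20 glucocorticoid and FoxO targets 4 rose, namely the receptor Nr3c1 (0.50), Klf15 (1.01), Foxo1 (0.63) and Zbtb16 (1.17). Their share was 20%, against 13.5% of all genes. Of these lists, the 9 oxidative stress calls became 2 to 5 without any 1 HFD array other than WT replicate 1, the 7 glycolysis calls 2 to 4 without KO replicate 1 or WT replicate 2 or 3, and the 4 glucocorticoid calls 1 to 2 without any 1 but WT replicate 1 and 8 without that one.

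Sterol genes ran both ways. Of 19 cholesterol synthesis enzymes 6 fell, 1 rose (Fdft1, squalene synthase, 0.59) and 12 did not pass, with a median of -0.44, and 18 of the 19 differences were negative. In sterol efflux, Abcg1, a target of the liver X receptor (-0.66), the transfer protein Pltp (-0.83) and the lysosomal exporters Npc1 (-0.66) and Npc2 (-0.58) fell. Cyp27a1, the sterol 27-hydroxylase, had 10.20, 9.90 and 10.18 in KO, against 9.49, 8.79 and 9.18 in WT (0.94 ± 0.17, adjusted p = 0.0075), and Abca1 did not pass (-0.16). Of 21 unfolded protein response genes 7 fell and 14 did not pass, the falls lying between -0.85 (Sdf2l1) and -0.24 (Atf6). Of 22 immediate early genes Atf3 (-2.84), Egr2 (-1.95) and Fos (-1.46) fell and 19 did not pass, a share of 13.6%, and those 3 calls became 1 without KO replicate 1 or 3 or WT replicate 2 or 3. The 7 sterol synthesis calls became 2 and the 7 stress calls 0 to 2 when KO replicate 1 or 3 or WT replicate 2 or 3 was left out, except for 3 sterol synthesis calls without KO replicate 3. The 6 efflux calls became 2 to 3 without any 1 of these 4 arrays.

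Other cell types of the tissue were followed by their markers. Endothelial genes had positive differences in 17 of 18 cases (median 0.38), but 2 passed, Rgcc (0.60) and Tek (0.51), a share of 11.1% against 13.5% of all genes. Those 2 calls became 0 without KO replicate 1 or 3 or WT replicate 2 or 3, 1 without KO replicate 2 and 4 without WT replicate 1. The list averaged 9.39, 9.34 and 9.28 in KO, against 9.21, 8.49 and 9.19 in WT, and WT replicate 2 stood well below the other 5. The defining vessel genes Pecam1 (0.23) and Cdh5 (0.13) did not pass. Stromal progenitor markers gave 3 falls, among them Lum (-1.28) and Icam1 (-0.53), and 1 rise in 18 genes, with Pdgfra at -0.01, and those 4 calls became 2 without KO replicate 1 or WT replicate 2. The stromal share that passed was 22.2%, against 13.5% of all genes. Of 14 smooth muscle and pericyte markers Pdgfrb (-0.72) and Cspg4 (-0.35) fell, a share of 14.3%, with 1 call left without KO replicate 1 or 3 or WT replicate 2 or 3. Mesothelial, nerve and epididymal lists had 0 of 13, 0 of 11 and 0 of 13 genes that passed. Skeletal muscle had 1 of 15, Pvalb, with 4.86, 5.06 and 5.06 in KO, against 5.42, 6.90 and 6.89 in WT (-1.41 ± 0.31, adjusted p = 0.014), and the mammary and skin list 1 of 13, Krt14 (-0.92). These shares of 6.67% and 7.69% lay below the 13.5% of all genes. The call of Pvalb was lost without KO replicate 1 or WT replicate 2 or 3 (adjusted p = 0.055 to 0.062).

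Set against chow, it was mostly the WT arrays that stood apart. Of the 1366 genes that fell, the WT mean on HFD lay above the range of the 6 chow arrays for 1317 and the KO mean lay within that range for 868. Of the 1325 that rose, the WT mean lay below the chow range for 1180 and the KO mean within it for 717. The median signed difference of the WT mean from the mean of the chow arrays was 0.75 for genes that fell and -0.41 for genes that rose. That of the KO mean was 0.07 and 0.05, where differences of opposite sign offset each other. The KO mean lay above the chow range for 343 genes that fell and below it for 155. For genes that rose these counts were 374 and 234. The WT mean lay farther from chow than the KO mean for 1305 of the genes that fell and 1082 of those that rose. All 3 WT arrays on HFD lay beyond the other 9 arrays for 1159 of the genes that fell, against a background of 8.81% above the other 9 among all genes, and for 896 of those that rose, against 8.28% below. KO and WT on HFD share the chow arrays in this description, so it carries no test. The genes were also chosen for a difference between KO and WT on these arrays, which by itself moves means apart. The shares of all genes with a mean within or beyond the chow range were not counted.

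**Figure D5:**
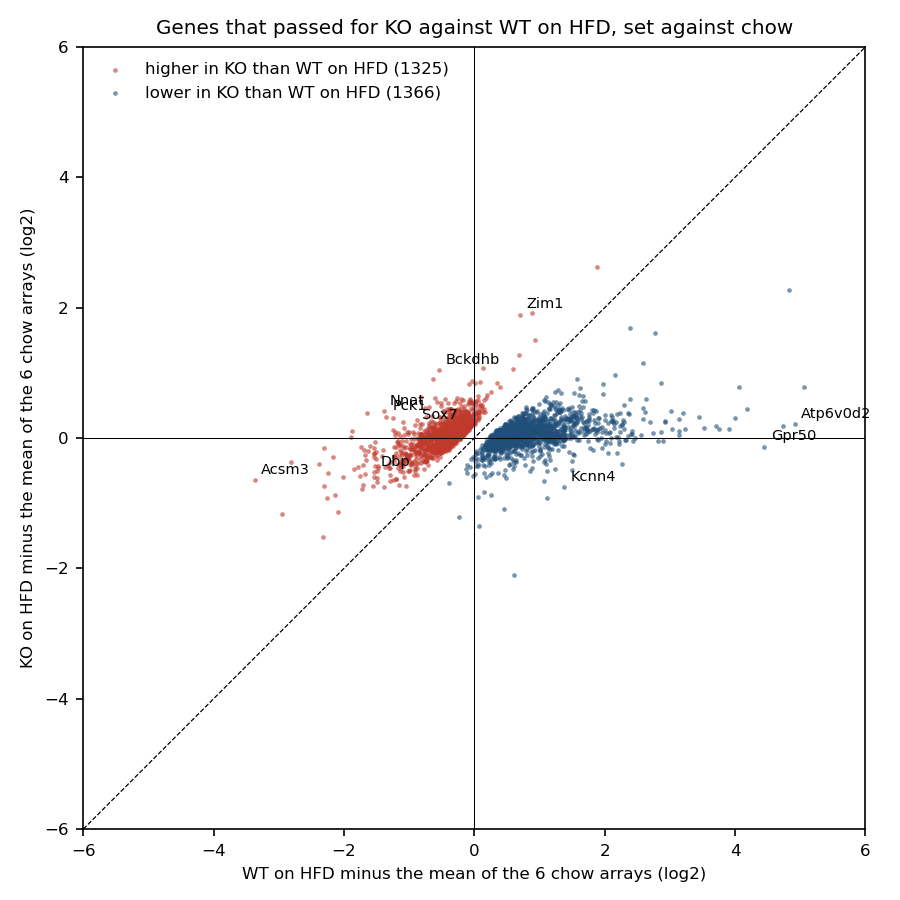
Each of the 2691 genes that passed, by its WT mean on HFD minus the mean of the 6 chow arrays (horizontal axis, log2) and its KO mean on HFD minus the same baseline (vertical axis, log2). Red points rose and blue points fell in KO, and 2387 of them lie farther from the vertical zero line than from the horizontal one.

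In a smaller set the KO arrays lay beyond all others, although the WT mean could still lie farther from chow on the other side. All 3 KO arrays on HFD lay above the other 9 for 225 genes that rose (2.65% of all genes do so) and below them for 71 that fell (0.978%). Bckdhb was the largest such rise, with chow means of 9.84 in KO and 9.76 in WT. The imprinted zinc finger gene Zim1 had 7.503, 6.04 and 6.25 in KO, against 5.29, 5.61 and 5.35 in WT (1.19 ± 0.29, adjusted p = 0.022), and both lay above the chow means of 4.79 in KO and 4.63 in WT. Jade3 had 9.48, 8.56 and 8.91 in KO, against 8.23, 7.75 and 7.89 in WT (1.03 ± 0.21, adjusted p = 0.012), with chow means of 7.15 in KO and 6.99 in WT. Both were above chow in each genotype and farther above in KO. Other members were the secretin receptor Sctr (1.21), Eepd1 (1.17), Sox7, Fv1 (1.05), Popdc2 (1.04), Glt8d2 (1.00) and Cyp27a1. Among the falls, the calcium-activated potassium channel Kcnn4 had 7.40, 7.39 and 7.22 in KO, against 8.497, 10.22 and 9.69 in WT. Its chow means were 8.01 in KO and 8.16 in WT. The 2 genotypes thus lay on opposite sides of chow, and the WT mean lay farther from it. Cdk18 (-1.85), Zranb3 (-1.79), Rgs2 (-1.55), Sh3bgrl2 (-1.43), Ap1s3 (-1.35), Vsig8 (-1.33), Efhd2 (-1.29), Mal2 (-1.13) and Cdk6 (-1.09) followed. The calls of Popdc2 and Rgs2 were lost without any 1 of the HFD arrays other than WT replicate 1 and also without some chow arrays, that of Cdk6 without KO replicate 1 or 3 or WT replicate 3, and that of Zim1 without WT replicate 3 (adjusted p = 0.074).

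The spread of the WT arrays was uneven. For genes that fell, the median SD was 0.103 in KO and 0.309 in WT on HFD, and 0.117 in KO and 0.119 in WT on chow. For genes that rose it was 0.0953 in KO and 0.165 in WT on HFD. WT on HFD had the widest SD of the 4 groups for 73.3% of the genes that fell and 57.4% of those that rose. WT replicate 1 was the lowest of the 3 WT arrays for 84.0% of the genes that fell, where it was so for 33.9% of all genes, and the highest for 80.5% of the genes that rose, where it was so for 40.5% of all. WT replicate 2 was the highest for 76.3% of the genes that fell, where it was so for 32.9% of all genes, and the lowest for 75.7% of those that rose, where it was so for 40.7% of all. WT replicate 1 thus lay nearest to the KO arrays in most of these genes, and macrophage markers moved with it: the pan-macrophage list was at 9.85 there and at 11.00 and 10.63 on replicates 2 and 3. What part macrophage content has in the other differences was not tested.

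The difference of KO from WT depended on diet by its own test for 1 gene (0.00502%), with 3496 at an unadjusted p under 0.05 (17.5%). That gene was Ppfibp2, whose difference was -1.11 on HFD and 0.01 on chow, an interaction of -1.12 ± 0.11 (adjusted p = 0.014). The count became 0 without WT chow replicate 1 or 3, KO chow replicate 1 or WT HFD replicate 2 or 3, 2 without KO chow replicate 2 or 3 or KO HFD replicate 1 or 2, 20 without WT chow replicate 2 and 2060 without WT HFD replicate 1. For F10 (-1.45, adjusted p = 0.055), Col12a1 (-1.17, 0.055), Bckdhb (1.502, 0.055) and Sox7 (1.24, 0.055) the interaction did not pass, so their difference is not shown to depend on diet. With only the 6 HFD arrays in the fit Ppfibp2 (adjusted p = 0.034), Elovl7 (0.016), Dbp (0.033) and Gm24463, a long noncoding RNA in RefSeq, passed. Gm24463 had 8.70, 8.66 and 8.68 in KO, against 7.85, 7.75 and 7.76 in WT. These 4 genes were chosen by p on the same 6 arrays, so a spread that is small beside the difference follows from the choice.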

How the data were processed

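White adipose RNA was measured on 1-colour Affymetrix arrays, 12 samples in 4 groups of 3. The deposited values are log2 intensities that the authors had already normalised, and the submitters' processing notes name the affy package without a version; the labels do not give the background and normalisation settings. They were used as deposited. Of the array's rows, 21640 name 1 gene, 1321 several and 11799 none. The row with the highest mean over 12 arrays stood for each of 19937 genes, with symbols checked against RefSeq (GRCm38.p6). Genes were tested with limma 3.58.1 in R 4.3.3 (lmFit and eBayes, 4 group means over all 12 arrays), KO minus WT on HFD, with Benjamini-Hochberg adjustment over all 19937 genes and a threshold of 0.05. SE is limma's. The procedure was tested on simulated data in which each gene had the same spread in all 4 groups. That test therefore does not cover the uneven spread of the WT arrays on HFD.

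Named are Ahnak, the 20 largest called changes in each direction whose arrays do not overlap, the 10 with the smallest p, genes called from the 6 HFD arrays alone or for diet dependence, the 10 largest with all KO (or WT) HFD arrays beyond the other 9, and of each of 58 lists up to 6 members by p, those against its majority and some that did not pass. Predicted genes, olfactory receptors and small RNAs were passed over, except those called from 6 arrays. Further list members were named after their values were seen. Members and lists were chosen with earlier results of these data known. Alternatives covered scaling, filters, rows per gene, array weights, the 6 HFD arrays alone, a replicate block and leaving out each array. The number of arrays limits the precision.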

Additional observations from a re-analysis of the deposited data

Results flagged for a closer look

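The difference between KO and WT itself differed between diets for 1 gene. Ppfibp2 had a difference of -1.11 on HFD and 0.01 on chow, and the test of that contrast gave -1.12 ± 0.11 (limma adjusted p = 0.014). It had 6.87, 6.94 and 7.12 in KO on HFD, against 7.99, 8.11 and 8.16 in WT on HFD.

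Signal also appeared in array values that carry no gene name and stand outside the comparisons. On HFD 300 of 11799 such values passed (2.54%), with 167 higher in KO than in WT and 133 lower, where 8.77% of those with 1 gene name passed. What they measure is not known here.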

How the results depend on the processing

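All 2691 genes kept their direction in every setting in which they were tested, and no result reversed. This was largely fixed in advance and is no support for the calls. Settings that keep the 6 HFD arrays and their values leave the difference as it was. Where the KO and WT arrays do not overlap, leaving out 1 array cannot reverse it. The count of 2691 (1325 higher, 1366 lower) became 4 (3 and 1) with only the 6 HFD arrays, 7648 (4082 and 3566) with array weights, where the weighting gave WT HFD replicate 3 a weight of 20.0 and did not converge cleanly, and 635 (228 and 407) at an adjusted p under 0.01. The higher count became 836 with all rows in the adjustment. Leaving out each array in turn gave 904 to 3930 genes, 344 to 1989 higher and 556 to 1941 lower, with the fewest in all without KO HFD replicate 1, the fewest lower without WT HFD replicate 3 and the most without WT HFD replicate 1; the cause was not tested. The 1 gene whose difference depended on diet became 0 at an adjusted p under 0.01, 85 among genes above the median level, 2819 with array weights and 0 to 2060 without 1 array. On chow the count of 0 became 1 without WT HFD replicate 1, by limma.

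Deviations of same-numbered KO and WT arrays on HFD from their group means correlated at r = 0.031, -0.0075 and 0.111. For arrays of unlike number r ran from -0.109 to 0.0298. With 3 arrays per group this cannot tell whether the numbers pair the samples. With the replicate number as a block 2325 genes passed (1114 higher, 1211 lower), 2214 of them among the 2691, and 0 depended on diet.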
